A study of Mus musculus with 8 samples.

Results

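Acute phase and collectin genes, most of whose proteins the liver secretes, were followed in the kidney. They were the serum amyloid A genes *Saa1*, *Saa2*, *Saa3*, and *Saa4*, the collectin gene *Mbl1*, and the complement gene *C3*. The haptoglobin gene *Hp* and the fibrinogen chain genes *Fga*, *Fgb*, and *Fgg* completed the set. These 10 genes were taken by name from the 55367 genes of the count table. They were proposed with their counts in the comparison of *c-Maf*-deleted with control mice already known, so their differences between genotypes are given as a description and support nothing beyond these counts.

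The acute phase response is the change in plasma protein production that follows injury or infection. Hepatocytes carry out most of it, under the control of IL-6, IL-1, and glucocorticoids, and factors such as STAT3, C/EBPβ, and NF-κB act on the promoters of these genes. Collectins are soluble lectins that bind sugars on microbes and start the lectin pathway of complement, which converges on C3. Kidney epithelium can also make several of these proteins, among them C3 and the fibrinogen chains, mainly after injury.

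The samples were whole kidneys of C57BL/6J mice labeled as 8 weeks old, 4 from c-MafΔTAM mice, which carry floxed *c-Maf* (*Maf*) and the *CAG-Cre-ER*TM transgene, and 4 from control mice, which are c-Maf fl/fl without Cre. Both genotypes received tamoxifen (TAM), which activates the Cre recombinase. The CAG promoter is active in most tissues, so the deletion was not restricted to the kidney. RNA depleted of ribosomal RNA was sequenced as read pairs of 36 bases, and the reads on the exons of each gene were counted. In whole kidney, fewer cells of a type and less RNA per cell cannot be told apart.

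The totals ranged from 16649129 to 22990257 counts per mouse. *Maf* had between 178 and 671 counts in c-MafΔTAM mice and between 5988 and 7746 in control mice, a log2 fold change of -4.05 (SE 0.51, adjusted *P* = 0.0115, edgeR quasi-likelihood test with Benjamini-Hochberg adjustment), lower in 4 of 4 mice. A sentence of the extraction protocol names liver, while the tissue label names kidney. The 10 kidney markers summed to between 18679 and 25435 CPM (counts scaled to a common library size by edgeR's TMM method) in every mouse, of which *Slc34a1*, a phosphate transporter of the proximal tubule, was called lower in c-MafΔTAM mice (log2 fold change -1.23, SE 0.12). The hepatocyte genes *Ahsg* and *Cyp7a1* had 0 counts in all 8. The other 12 hepatocyte markers had counts, among them *Apob* with 8540 to 15231 and *Alb* with 13 to 196 per mouse. *Xist*, which is transcribed from the inactive X chromosome of females, had at least 17618 counts in 5 mice and at most 22 in the other 3, namely c-MafΔTAM mouse 1 and control mice 3 and 4. The sexes are not labeled. Where the level of a member follows *Xist*, this is given beside the result.

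Of the 10 genes, 7 passed edgeR's filter on low counts, and *Saa1*, *Saa2*, and *Saa3* did not. *Saa4* passed through its counts in c-MafΔTAM mice alone. Over all 20149 genes tested, 436 had an adjusted *P* value under 0.05 in edgeR's quasi-likelihood test and are referred to as called (2.16%), of which 118 were higher (0.586%) and 318 lower (1.58%) in c-MafΔTAM mice. An unadjusted *P* under 0.05, given for some lists, was reached by 2825 of the 20149. DESeq2, also given for some lists, put 886 of the 20149 past the threshold. For edgeR's exact test it was 596 of 31280 genes, since its filter was a total of at least 5 counts. Among the members the calls were those of *Saa4* and *Mbl1*, both higher in c-MafΔTAM mice, and that of *Saa4* was lost in 5 of 8 fits that left out 1 mouse (c-MafΔTAM mouse 2 or 3, or control mouse 1, 2, or 3). The genotypes did not overlap for *Saa4* and *Mbl1* and overlapped for the other 5, beside a share of 9.79% of all tested genes without overlap. Because the members were chosen on this contrast, and *Saa4* entered the fit through its higher group, these counts repeat the choice and are no test of it.

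**Figure D1:**
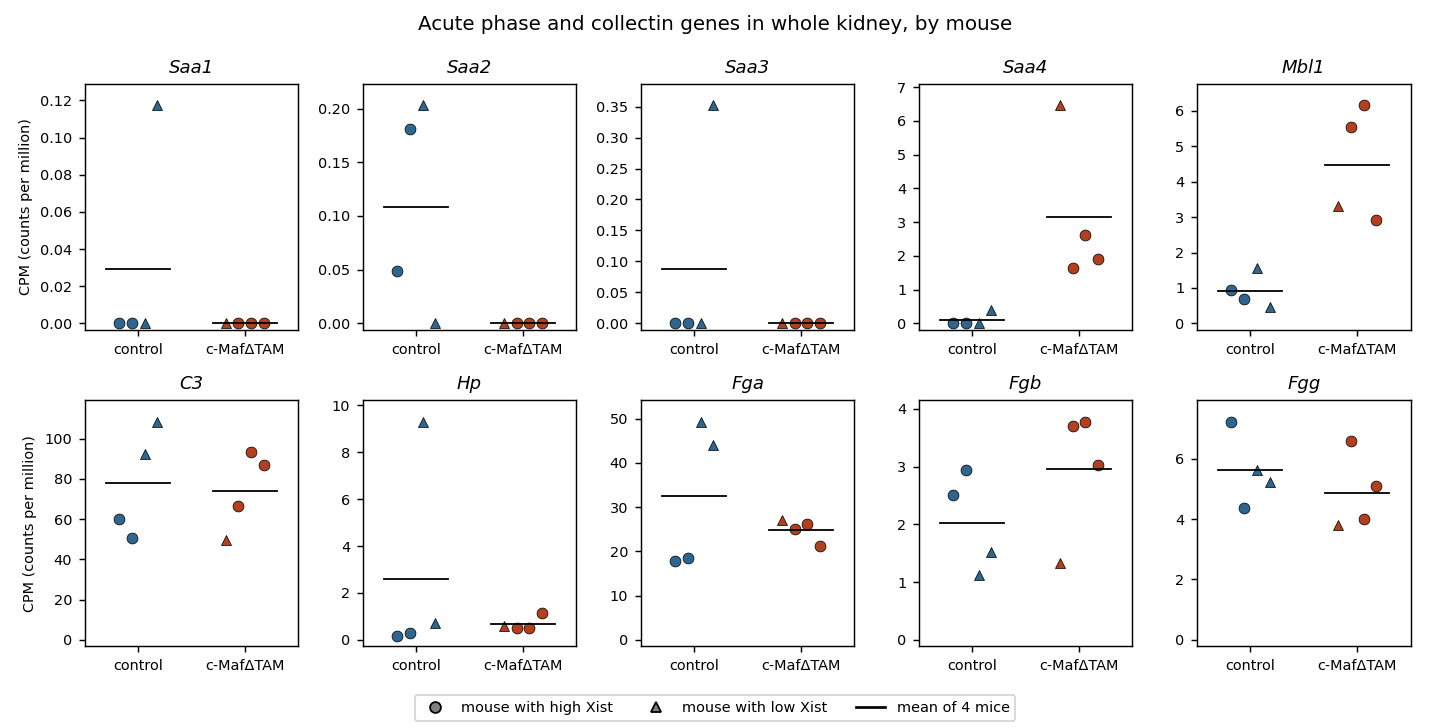
Level of each of the 10 genes in every mouse, in CPM on a linear axis that differs between panels. Circles are mice with high *Xist* and triangles mice with low *Xist*, and the line is the mean of 4 mice. The genotypes are separated for *Saa4* and *Mbl1*, while *Saa1*, *Saa2*, and *Saa3* are at 0 in all 4 c-MafΔTAM mice.

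Compared per kilobase of exon over all 8 mice, *C3* was the highest at 14.8 CPM per kb, followed by *Fga* at 9.52. *Fgg* (2.50 CPM per kb), *Mbl1* (1.72), *Hp* (1.03), *Saa4* (0.777), and *Fgb* (0.653) came next, and *Saa1*, *Saa2*, and *Saa3* were at most at 0.135 CPM per kb in any mouse. The ranges over mice of *C3* (9.62 to 21.0 CPM per kb) and *Fga* (5.93 to 16.4) overlapped, as did those of *Fgg* (1.82 to 3.45) and *Mbl1* (0.299 to 3.92). *Fgb* ranged from 0.293 to 0.990 CPM per kb, within the ranges of *Saa4* (0 to 3.09) and *Hp* (0.0916 to 5.78). The mean of *Hp* was carried by control mouse 3, and by the median over mice the order of the last 3 was reversed, with *Fgb* at 0.713, *Saa4* at 0.490, and *Hp* at 0.350 CPM per kb. The order also differed between genotypes. *Mbl1* was at 2.86 CPM per kb beside 2.33 for *Fgg* in c-MafΔTAM mice, and at 0.581 beside 2.68 in control mice, and *Saa4* was at 1.51 and 0.0490 CPM per kb.

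The 4 serum amyloid A genes lie within 42.3 kb of mouse chromosome 7 (GRCm38). *Saa1* and *Saa2* encode the major acute phase forms that circulate on high density lipoprotein, *Saa3* encodes a form made mainly outside the liver, by macrophages and fat cells, and *Saa4* encodes the form regarded as constitutive. *Saa4* (chr7:46727998-46732603, minus strand) was the member with the largest difference. It had 127, 32, 47, and 35 counts in c-MafΔTAM mice 1 to 4 and 0, 0, 0, and 7 counts in control mice 1 to 4. All c-MafΔTAM mice were above all control mice, and c-MafΔTAM mouse 1 was far above the other 3. In CPM the means were 3.15 ± 2.24 (SD, n = 4) and 0.103 ± 0.205 (SD, n = 4), and the fitted log2 fold change was 5.03 (SE 0.95). The size of this value rests on the 7 counts of control mouse 4. It was 4.41 without c-MafΔTAM mouse 1, 8.96 without control mouse 4, and 8.34 among the mice with high *Xist*, and in the last 2 fits all controls were at 0, so that the value depends on the prior count and is no bound.

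The other serum amyloid A genes were barely detected. *Saa1* (chr7:46740497-46742980, minus strand) had 2 counts, both in control mouse 4. *Saa3* (chr7:46711998-46715700, minus strand) had 6 counts, again in control mouse 4. *Saa2* (chr7:46751790-46754313, plus strand) had 1, 4, 4, and 0 counts in control mice 1 to 4. None of the 3 had a count in any c-MafΔTAM mouse. A count of 0 allows up to 3 counts, or between 0.153 and 0.166 CPM in these 4 libraries, and this limit covers counting error only. At this depth a difference between genotypes was not detectable for *Saa1* and *Saa3*, and no fold change is given for *Saa2*.

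Reads of 36 bases cannot always be assigned within this family. Of the 36-base sequences of the *Saa1* transcripts, 41.8% also occurred in transcripts of other genes, nearly all of them in *Saa2* (41.0%), and for *Saa2* the share was 39.5%. For *Saa3* it was 6.74% and for *Saa4* 1.63%, and *Mbl1*, *C3*, *Hp*, *Fga*, and *Fgb* shared none. Reads with more than 1 alignment were not counted, so the counts of *Saa1* and *Saa2* cover only the parts that differ between them. The likeness extends upstream of the genes. The RefSeq promoters of *Saa1* and *Saa2* are printed to show how close the acute phase pair is, in the direction of transcription on GRCm38.p6, up to the annotated start of the transcripts, with letters in capitals where a C/EBP-type motif (TTNNGNAAT) matched on either strand.
Saa1 (chr7:46742981-46743230, minus strand): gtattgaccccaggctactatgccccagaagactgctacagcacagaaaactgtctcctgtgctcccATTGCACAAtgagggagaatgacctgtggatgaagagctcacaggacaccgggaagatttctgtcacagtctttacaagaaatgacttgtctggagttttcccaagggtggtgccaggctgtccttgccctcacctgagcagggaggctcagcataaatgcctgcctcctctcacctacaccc
Saa2 (chr7:46751583-46751789, plus strand): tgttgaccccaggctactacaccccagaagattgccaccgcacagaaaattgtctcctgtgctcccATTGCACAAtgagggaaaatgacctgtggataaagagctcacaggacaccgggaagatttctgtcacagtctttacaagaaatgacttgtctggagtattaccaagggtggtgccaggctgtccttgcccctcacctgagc
Over the 250 bases before the RefSeq starts both genes differed at few positions, with 238 identical bases in an alignment of 251 columns (94.8%). Both held the match at about the same distance from the RefSeq start, from base -183 in *Saa1* and -184 in *Saa2*. The printed *Saa2* sequence ends before the RefSeq start, after 207 bases, so its match lies closer to the printed end.

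The promoters of *Saa4* and *Mbl1* are printed because these are the 2 members that were called higher in c-MafΔTAM mice.
Saa4 (chr7:46732604-46732853, minus strand): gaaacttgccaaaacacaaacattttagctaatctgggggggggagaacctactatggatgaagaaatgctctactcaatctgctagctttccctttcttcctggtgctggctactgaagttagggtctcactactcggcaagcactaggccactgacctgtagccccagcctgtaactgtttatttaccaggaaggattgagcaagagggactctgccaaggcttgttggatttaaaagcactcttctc
Mbl1 (chr14:41151206-41151455, plus strand): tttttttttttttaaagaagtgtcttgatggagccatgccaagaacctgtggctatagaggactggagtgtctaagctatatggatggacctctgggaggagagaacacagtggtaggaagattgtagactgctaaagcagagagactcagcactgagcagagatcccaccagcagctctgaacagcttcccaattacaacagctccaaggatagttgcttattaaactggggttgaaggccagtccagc
Neither sequence holds a capital letter, since none of 6 motifs matched there. The motif for Maf factors was TGCTGAC, a half-site of the element they bind. The others were TTNNGNAAT for C/EBP, TTCNNNGAA for STAT3, GGGANTTTC for NF-κB, TTAATNATT for HNF1, and TATAAA, the TATA box. Each was searched on both strands of the 250 bases before the start. Other forms of the Maf element were not searched, so a promoter without TGCTGAC may still hold one.

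The promoter sequences used here matched 9 of the members, all but *Hp*. TGCTGAC matched in 1 of the 9, *Fga*, beside 3.81% of the 32851 promoters of the same length. The C/EBP-type motif matched in *Saa1*, *Saa2*, and *C3*, beside 10.2% of all promoters, and the STAT3-type motif in *Fga* and *Fgb*, beside 7.02%. The NF-κB-type, HNF1-type, and TATA motifs matched in none of the 9, beside 0.941%, 1.40%, and 12.4% of all promoters. A match describes the letters of this window and is not evidence of binding. The *Fga* sequence, up to the annotated start of its transcripts, is shown as the 1 with TGCTGAC. The STAT3-type match (TTCCTGGAA) and TGCTGAC are in capitals.
Fga (chr3:83025903-83026075, plus strand): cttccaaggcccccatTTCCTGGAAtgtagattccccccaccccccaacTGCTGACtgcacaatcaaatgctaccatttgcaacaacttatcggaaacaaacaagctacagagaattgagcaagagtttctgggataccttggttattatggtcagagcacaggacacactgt

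*Mbl1* (chr14:41151458-41159601, plus strand) encodes mannose-binding lectin A, a collectin of mouse serum that binds mannose and works with the MASP proteases. Its counts were 65, 108, 111, and 54 in c-MafΔTAM mice 1 to 4 and 19, 15, 31, and 8 in control mice 1 to 4. The lowest c-MafΔTAM mouse was above the highest control mouse. The means were 4.48 ± 1.61 CPM (SD, n = 4) and 0.913 ± 0.479 CPM (SD, n = 4), and the log2 fold change was 2.28 (SE 0.37). *Mbl1* was higher in c-MafΔTAM mice both among the mice with high *Xist* (2.92 to 6.16 against 0.677 to 0.932 CPM) and among those with low *Xist* (3.31 in 1 mouse against 0.469 and 1.57 CPM). The same order held for *Saa4* among high-*Xist* mice, with 1.64 to 2.61 CPM against 0 in both control mice. Among low-*Xist* mice *Saa4* was at 6.46 CPM in c-MafΔTAM mouse 1 against 0 and 0.410 CPM in control mice 3 and 4. The mouse with the most *Saa4* in each genotype was thus a low-*Xist* mouse. When each mouse was left out in turn, the log2 fold change of *Mbl1* lay between 2.08 and 2.67.

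*Mbl1* and *Saa4* did not order the c-MafΔTAM mice alike. Mouse 1 was the highest of the 4 for *Saa4* and mouse 3 for *Mbl1*. Over the 8 mice, the Pearson correlation of their log2 CPM was 0.74, and since both differ between the genotypes, the 8 points share that split.

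**Figure D2:**
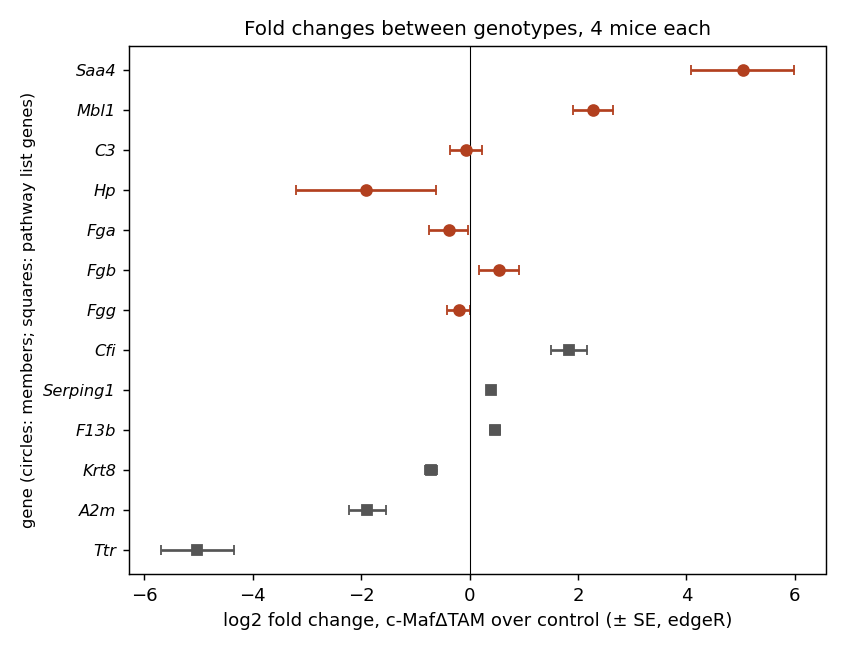
Log2 fold change of c-MafΔTAM over control mice with its SE from edgeR, for the 7 members that passed the filter (circles) and the 6 genes of the pathway lists past the threshold (squares). *Saa4* (5.03, over controls with 0, 0, 0, and 7 counts) and *Ttr* (-5.02) are the farthest from 0, and *C3* (-0.07), *Fga* (-0.38), and *Fgg* (-0.20) are the members closest to it.

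*C3* (chr17:57203970-57228136, minus strand) encodes the component on which all complement pathways converge, and it was the most abundant member. It had 972, 1291, 1681, and 1609 counts in c-MafΔTAM mice 1 to 4 and 1227, 1120, 1817, and 1846 counts in control mice 1 to 4. The genotypes overlapped fully, with mean levels of 74.0 ± 20.02 CPM and 77.8 ± 27.0 CPM (SD over 4 mice), a log2 fold change of -0.07 (SE 0.29, 95% interval -0.76 to 0.61). Within the *Xist* classes the order of the genotypes was opposite. Among mice with high *Xist*, *C3* was at 66.3 to 93.2 CPM in 3 c-MafΔTAM mice and at 50.6 and 60.2 CPM in 2 control mice. Among mice with low *Xist*, it was at 49.5 CPM in the c-MafΔTAM mouse and at 92.2 and 108 CPM in the control mice. The difference between the classes was not tested, and the class with low *Xist* has 1 c-MafΔTAM mouse.

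The fibrinogen chain genes lie side by side within 42.1 kb of chromosome 3. The Aα, Bβ, and γ chains they encode assemble in equal numbers into fibrinogen, the precursor of fibrin. *Fga* (chr3:83026076-83033627, plus strand) had 531, 486, 473, and 393 counts in c-MafΔTAM mice and 364, 412, 970, and 752 counts in control mice. The c-MafΔTAM mice were close together, at 24.9 ± 2.54 CPM (SD, n = 4), whereas control mice fell on both sides of them, at 32.4 ± 16.6 CPM (SD, n = 4). The 2 control mice with low *Xist* were at 49.2 and 44.1 CPM and the 2 with high *Xist* at 17.9 and 18.6 CPM. The log2 fold change was -0.38 (SE 0.36, 95% interval -1.22 to 0.46). As for *C3*, c-MafΔTAM mice were above control mice among those with high *Xist* (21.3 to 26.2 CPM) and below them among those with low *Xist* (27.0 CPM), which was not tested.

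*Fgb* (chr3:83040141-83049863, minus strand) had 26, 72, 68, and 56 counts in c-MafΔTAM mice and 51, 65, 22, and 26 counts in control mice. The 3 mice with low *Xist* were the 3 lowest, at 1.12 to 1.52 CPM, and the 5 with high *Xist* were at 2.50 to 3.77 CPM. The genotypes overlapped, with means of 2.96 ± 1.14 and 2.02 ± 0.843 CPM (SD, n = 4 each) and a log2 fold change of 0.54 (SE 0.37, 95% interval -0.27 to 1.35).

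*Fgg* (chr3:83007724-83015049, plus strand) had 75, 128, 72, and 94 counts in c-MafΔTAM mice and 147, 97, 111, and 89 counts in control mice. Its levels followed neither the genotype nor *Xist*. It averaged 4.87 ± 1.27 CPM in c-MafΔTAM mice and 5.61 ± 1.19 CPM in controls (SD over 4 mice), a log2 fold change of -0.20 (SE 0.22, 95% interval -0.68 to 0.27). Exons of the predicted gene *Gm30097* overlap 5.49% of its exonic bases, where reads were not counted for either gene.

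The RNA levels of the 3 chain genes were unequal in the kidney, and the proteins were not measured. Per kilobase of exon, *Fga* was above *Fgg* and *Fgg* above *Fgb* in every mouse. *Fga* exceeded *Fgb* by between 8.02 and 9.03 times in the 5 mice with high *Xist*. The ratio was 25.9 in c-MafΔTAM mouse 1, 55.8 in control mouse 3, and 36.6 in control mouse 4, the 3 mice with low *Xist*. The ratio of *Fga* to *Fgg* ranged from 1.72 to 6.08. The Pearson correlation of log2 CPM over the 8 mice was -0.70 for *Fga* with *Fgb*, -0.05 for *Fga* with *Fgg*, and 0.09 for *Fgb* with *Fgg*.

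**Figure D3:**
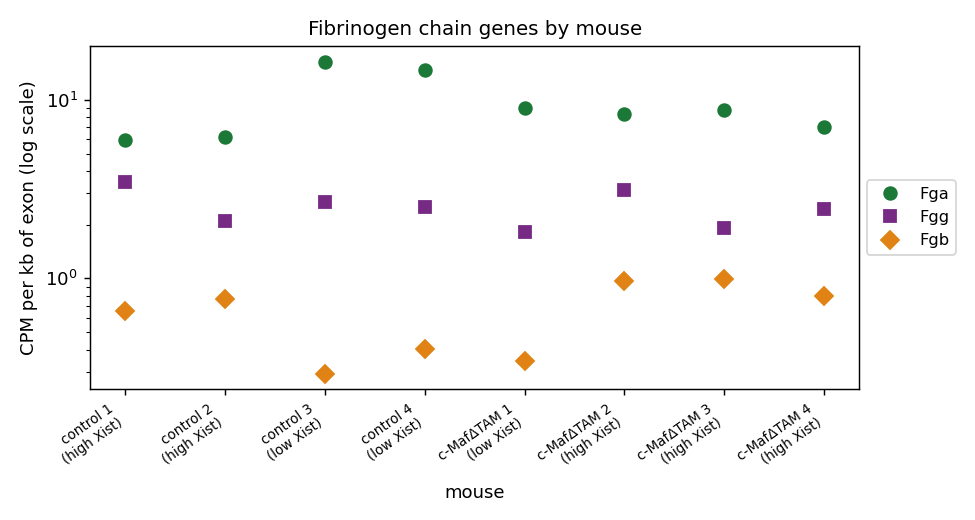
Level of *Fga*, *Fgg*, and *Fgb* per kilobase of exon in each mouse, on a log axis, with the *Xist* class of each mouse under its name. In the 3 mice with low *Xist* the distance between *Fga* and *Fgb* is wider, with ratios of 25.9 to 55.8 against 8.02 to 9.03 in the other mice.

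*Hp* (chr8:109575128-109579172, minus strand) encodes haptoglobin, which binds free hemoglobin and is made by liver and by fat. It lies 6.1 Mb from *Maf* on the same chromosome. *Hp* had 12, 10, 9, and 21 counts in c-MafΔTAM mice and 3, 7, 183, and 12 counts in control mice. A single library, control mouse 3, held most of the counts of its group, at 9.29 CPM beside 0.147 to 0.704 CPM in the other control mice. The log2 fold change of -1.91 (SE 1.29) turned to 0.86 without this mouse. *Hp* averaged 0.690 ± 0.302 CPM in c-MafΔTAM mice and 2.61 ± 4.45 CPM in controls (SD over 4 mice). The order of the genotypes was opposite in the *Xist* classes, which was not tested. With high *Xist*, *Hp* was at 0.499 to 1.14 CPM in c-MafΔTAM mice and at 0.147 and 0.316 CPM in control mice. With low *Xist*, it was at 0.611 CPM in 1 c-MafΔTAM mouse and at 0.704 and 9.29 CPM in control mice, the last being control mouse 3.

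The same library held transcripts of fat cells. The 10 adipocyte markers summed to 292 CPM in control mouse 3 and to between 34.5 and 79.9 CPM in the other 7 mice, where *Fabp4* and *Car3* made up most of the sum. Of the 10, 2 passed the filter and 0 were called by edgeR's quasi-likelihood test, at an unadjusted *P* under 0.05, by DESeq2, or by the exact test. *Adipoq*, the adiponectin gene, had 172 counts there, 38 in c-MafΔTAM mouse 4, and at most 6 in the other mice. *Ucp1*, the uncoupling protein of brown fat, had 461 counts in control mouse 3 and 80 in c-MafΔTAM mouse 4. These 2 mice were also the highest of their genotypes for *Hp*. The part of fat in the *Hp* counts was not tested. Without these 2 mice, a setting chosen after the counts were seen, *Hp* had a log2 fold change of 0.51, *Mbl1* of 2.83, and *Saa4* of 4.82, and *Saa4* was no longer called.

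**Figure D4:**
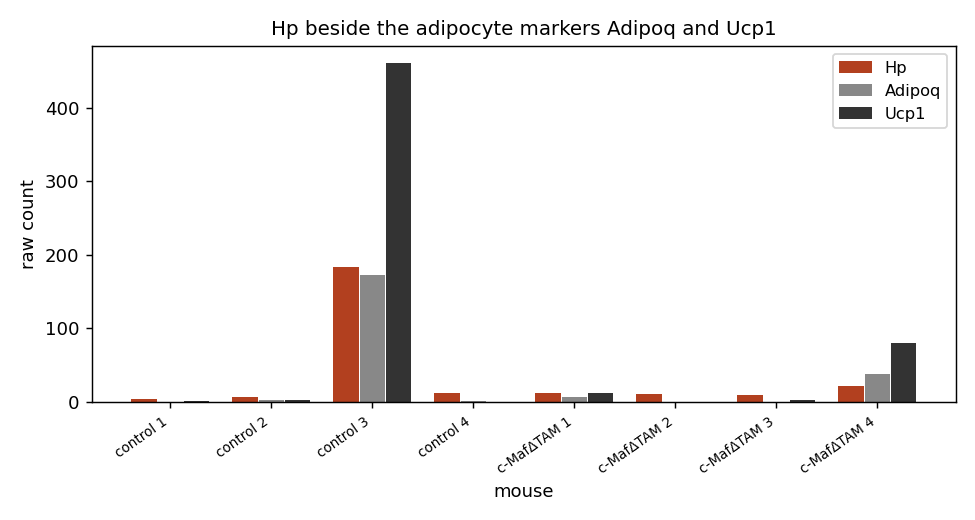
Raw counts of *Hp* and of the adipocyte markers *Adipoq* and *Ucp1* in each mouse, on a linear axis from 0. All 3 are highest in control mouse 3, with 183, 172, and 461 counts, and next highest in c-MafΔTAM mouse 4, with 21, 38, and 80.

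The genes beside the members were examined in the same fit. Within 200 kb of the 5 loci, the nearest named genes with a mean of at least 1 CPM, up to 2 on each side, were 16 genes, a choice made after the members' values were known. None was past the threshold in the edgeR quasi-likelihood fit, at an unadjusted *P* under 0.05, by DESeq2, or by edgeR's exact test. With 2.16% of all genes called, 0 calls among 16 genes does not set them apart. Their log2 fold changes ranged from -0.18 to 0.41, and the smallest adjusted *P* was 0.583 (edgeR quasi-likelihood test with Benjamini-Hochberg adjustment). *Hps5* and *Gtf2h1* on the higher-coordinate side of the *Saa* cluster and *Saal1* and *Sergef* on the other had log2 fold changes of -0.06, -0.11, 0.04, and -0.14. *Prxl2a* and *Tspan14*, the neighbors of *Mbl1*, were at 0.24 and -0.03.

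The rest of the acute phase system was followed with 8 lists of 150 different genes without the members, of which 106 passed the filter. Past the threshold were 3 higher and 3 lower genes, together 5.66% of those tested, beside the 2.16% of all genes. The lists were chosen with earlier results of these data known, so this share is a description and no test. The count of calls also changed with the processing, as given further on. The median log2 fold change over the 106 was 0.10, and it was 0.00 over all genes tested.

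Of the other positive acute phase genes, which rise in inflammation, 9 of 20 passed the filter and 1 was called, lower in c-MafΔTAM mice. This was *A2m*, the gene of the protease inhibitor α2-macroglobulin. It had 10, 13, 13, and 11 counts in c-MafΔTAM mice and 52, 71, 46, and 19 counts in control mice, without overlap. Its log2 fold change was -1.88 (SE 0.34, adjusted *P* = 0.0138, edgeR quasi-likelihood test), and the call was lost without control mouse 2 (adjusted *P* = 0.0505). *Lcn2*, the lipocalin that marks inflamed tubules, had 237 counts in c-MafΔTAM mouse 4 and between 28 and 90 in the other mice and was not called.

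Of the negative acute phase genes, which fall in inflammation, 4 of 7 passed the filter and 1 was called, lower in c-MafΔTAM mice. All 4 had lower fitted values in c-MafΔTAM mice, as had 9983 of the 20149 genes tested. Of the 9 positive acute phase genes tested, 7 had higher fitted values, as had 10166 of all genes tested. The directions of genes not called were not tested. *Ttr*, which encodes the thyroxine and retinol carrier transthyretin, had 4, 59, 24, and 9 counts in c-MafΔTAM mice and 665, 697, 1337, and 572 counts in control mice. Every control mouse was far above every c-MafΔTAM mouse. The log2 fold change was -5.02 (SE 0.68, adjusted *P* = 0.0152, edgeR quasi-likelihood test), which lost the threshold without c-MafΔTAM mouse 3 or without mouse 4 (adjusted *P* up to 0.0752). It was -5.95 without c-MafΔTAM mouse 2, which held the most *Ttr* counts of its group, and -4.29 among the mice with high *Xist*. *Alb*, the albumin gene, had 13 to 50 counts in c-MafΔTAM mice and 53 to 196 in control mice, with a log2 fold change of -2.04 (SE 0.50) and an adjusted *P* of 0.0803 (edgeR quasi-likelihood test). Among the 14 hepatocyte markers, of which 8 passed the filter, 0 were called by edgeR's quasi-likelihood test, with 4 at an unadjusted *P* under 0.05, 1 by DESeq2, and 2 by the exact test. By their fitted values 4 of the 8 were higher and 4 lower in c-MafΔTAM mice, and the 4 at an unadjusted *P* under 0.05 were *Alb* and *Apob* (log2 fold change -0.28), fitted lower, and the α1-antitrypsin genes *Serpina1b* (2.02, SE 0.68) and *Serpina1a* (1.99, SE 0.73), fitted higher. *Serpina1b* had 100, 45, 76, and 64 counts in c-MafΔTAM mice and 3, 4, 35, and 29 in control mice. The sum of the 14 markers, mostly of *Apob*, was 459 to 671 CPM in c-MafΔTAM mice and 630 to 753 CPM in control mice.

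Among the collectins, ficolins, and lectin pathway genes, 4 of 10 passed the filter and 0 were called, with 1 at an unadjusted *P* under 0.05, 1 by DESeq2, and 0 by edgeR's exact test. This 1 gene was *Masp1*, a protease that acts with mannose-binding lectin, at 5.23 ± 1.39 CPM in c-MafΔTAM and 2.88 ± 0.801 CPM in control mice (SD, n = 4 each; log2 fold change 0.85, SE 0.26, adjusted *P* = 0.132 by edgeR's quasi-likelihood test). *Mbl2*, the gene of the other mannose-binding lectin, did not pass the filter, with 0, 10, 4, and 4 counts in c-MafΔTAM mice and 7, 10, 13, and 1 in control mice.

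Of the complement genes, 23 of 29 passed the filter and 2 were called, both higher in c-MafΔTAM mice. *Cfi*, the protease that inactivates C3b and C4b, had 309, 521, 465, and 492 counts in c-MafΔTAM mice and 174, 215, 67, and 83 counts in control mice, without overlap. Within each genotype the mice with low *Xist* were the lowest. The log2 fold change was 1.83 (SE 0.33, adjusted *P* = 0.0294, edgeR quasi-likelihood test). *Serping1*, the inhibitor of C1 proteases, was at 73.7 ± 3.06 CPM in c-MafΔTAM and 55.9 ± 3.46 CPM in control mice (SD, n = 4 each), with a log2 fold change of 0.40 (SE 0.08, adjusted *P* = 0.0194, edgeR quasi-likelihood test). *Cfi* stayed past the threshold in 3 of the 8 fits that left out 1 mouse, and *Serping1* in 5.

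In coagulation and fibrinolysis, 19 of 26 genes passed the filter and 1 was called, higher in c-MafΔTAM mice. *F13b*, the carrier subunit of the factor that cross-links fibrin, was at 127 ± 10.4 CPM in c-MafΔTAM and 91.1 ± 8.02 CPM in control mice (SD, n = 4 each; log2 fold change 0.48, SE 0.09, adjusted *P* = 0.0196 by edgeR's quasi-likelihood test), and was past the threshold in 3 of the 8 fits without 1 mouse.

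**Figure D5:**
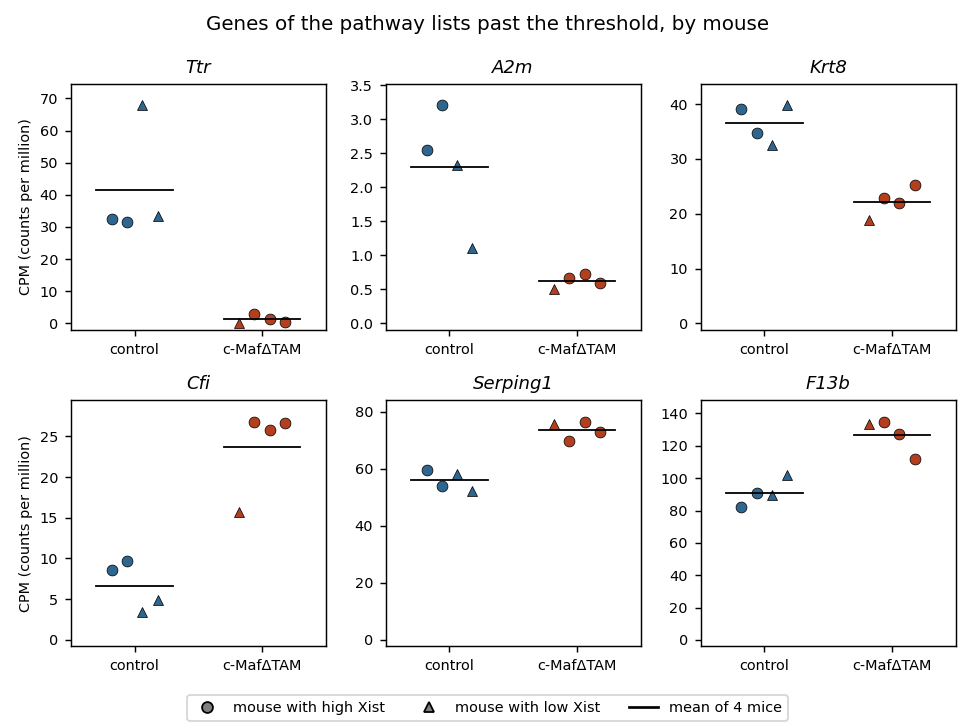
Level of the 6 genes of the pathway lists past the threshold in every mouse, in CPM on a linear axis that differs between panels, with circles for high and triangles for low *Xist* and a line at the mean of 4 mice. The upper panels show the genes that were lower in c-MafΔTAM mice, *Ttr*, *A2m*, and *Krt8*, and the lower panels those that were higher, *Cfi*, *Serping1*, and *F13b*, without overlap in any of the 6.

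The receptors of the member proteins, of which 11 of 15 passed the filter, gave 0 calls, with 1 at an unadjusted *P* under 0.05, 1 by DESeq2, and 0 by the exact test. The smallest *P* was that of *Tlr2*, a receptor of bacterial lipoproteins that serum amyloid A also engages, at 4.46 ± 1.45 against 2.42 ± 0.485 CPM (SD, n = 4 each; log2 fold change 0.88, SE 0.26, adjusted *P* = 0.123 by edgeR's quasi-likelihood test). Of the cytokine and signaling genes, 27 of 32 passed the filter with 0 calls, 3 at an unadjusted *P* under 0.05, 1 by DESeq2, and 0 by the exact test. *Jak2*, a kinase of cytokine receptors, had the smallest *P*, at 61.4 ± 3.90 against 50.1 ± 2.44 CPM (SD, n = 4 each; log2 fold change 0.29, SE 0.08, adjusted *P* = 0.0913 by edgeR's quasi-likelihood test). *Il6*, the main inducer of the response, had 4, 2, 0, and 0 counts in c-MafΔTAM and 2, 0, 0, and 0 counts in control mice.

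Of the tubular injury genes, 12 of 14 passed the filter and 1 was called, lower in c-MafΔTAM mice. *Krt8*, a keratin of simple epithelia, was at 22.2 ± 2.67 CPM in c-MafΔTAM and 36.5 ± 3.48 CPM in control mice (SD, n = 4 each; log2 fold change -0.72, SE 0.11, adjusted *P* = 0.0052 by edgeR's quasi-likelihood test), past the threshold in 8 of the 8 fits without 1 mouse. It shares 33.9% of its 36-base sequences with other genes, mainly its pseudogene, so its count covers the rest. *Havcr1*, the KIM-1 gene of injured proximal tubules, varied widely, with 12 to 517 counts in c-MafΔTAM and 54 to 293 in control mice. Its highest value was in c-MafΔTAM mouse 1, also the highest for *Saa4*. Of the markers of blood-borne cells, the 9 macrophage markers summed to 87.4 to 98.6 CPM in c-MafΔTAM and 78.0 to 86.8 CPM in control mice, with 0 of the 8 tested called by edgeR's quasi-likelihood test, by DESeq2, or by the exact test and 3 at an unadjusted *P* under 0.05, all higher. The 9 neutrophil markers summed to at most 1.78 CPM in any mouse and none passed the filter, and the 5 hemoglobin and erythroid genes summed to 188 to 349 CPM over all mice, with 0 called by any of these tests and 1 at an unadjusted *P* under 0.05.

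By the Pearson correlation of log2 CPM over the 8 mice, computed against 17477 genes with a mean of at least 1 CPM, the 3 genes most like each member were as follows. For *Mbl1* they were *Edn1* (0.98), *Loxl4* (0.98), and *Zfp57* (0.97), and for *Saa4* they were *Plk2* (0.98), *Gm42047* (0.97), and *Zfp976* (0.97). All 6 were higher in every c-MafΔTAM mouse than in any control mouse. For *C3* they were *Tnfrsf14* (0.97), *Rnf19b* (0.94), and *Prkrip1* (0.94), and for *Fga* they included *Afg3l1* and *Galnt14* (0.98 each). For *Fgb* they were *C230071H17Rik*, *Fam107a*, and *Steap3* (0.98 each), all 3 lowest in the 3 mice with low *Xist*. For *Fgg* they were *Dse* (0.98), *Rpl28-ps3* (0.98), and *Smox* (0.96). For *Hp* they were *Slc36a2* (0.97), *Plekhm1* (0.97), and *Hk2* (0.93), each highest in control mouse 3. With 8 points and so many genes, coefficients of this size are a description of these mice, in which genotype, *Xist* class, and single libraries are shared by all genes.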

How the data were processed

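RNA-Seq of whole kidneys was analyzed in 4 c-MafΔTAM and 4 control (c-Maf fl/fl) mice, each mouse 1 replicate, grouped by the genotype label. The authors deposited raw counts of reads per gene name, made with featureCounts 2.0.1 (Subread 2.0.2 and edgeR 3.36.0 appear in their processing notes) on exons of the Ensembl annotation of GRCm38. Reads of a pair were counted singly, without strand, and reads on several genes or with several alignments were not counted. The aligner is not given in the sources used here. No column of sample values was left unused (0 columns). The study's own comparison used CLC Genomics Workbench from reads and was not repeated.

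Genes were filtered with filterByExpr, scaled by TMM, and compared between genotypes with edgeR 4.0.16 (robust quasi-likelihood fit and test, limma 3.58.1, R 4.3.3), calling a Benjamini-Hochberg adjusted *P* under 0.05 over 20149 genes. Log2 CPM used a prior count of 2. The members and gene lists were chosen with earlier results of these data known, so no *P* value is given for a member. Named genes were all members, every called gene of the 8 pathway lists, the gene with the smallest *P* of each list without a call, the 3 most correlated genes of each member with a mean of at least 1 CPM, *Maf*, and *Xist*. *Lcn2*, *Alb*, *Mbl2*, *Il6*, *Havcr1*, the single cell type markers with values (*Slc34a1*, *Ahsg*, *Cyp7a1*, *Adipoq*, *Ucp1*, *Fabp4*, *Car3*, *Apob*, *Serpina1a*, *Serpina1b*), and the neighboring genes were added after their values were seen. A gene that this rule names is not reported here.

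Alternatives were RLE factors, quantile normalization with limma-trend, a filter of at least 1 count, DESeq2 1.42.0, edgeR's exact test with 5 counts as the smallest total, the replicate number as a block, *Xist* as a covariate, the 5 mice with high *Xist* (over 1000 counts), and each mouse left out. Shared 36-base sequences came from GENCODE vM21 transcripts and promoters from RefSeq on GRCm38.p6, aligned with Biopython and plotted with matplotlib in Python. Scripts were tested on simulated counts. Totals of 16649129 to 22990257 counts per mouse put 3 counts at 0.135 to 0.176 CPM. The labels do not tell littermates or sexes. *P* values judge the difference between genotypes against the spread between these mice as modeled by each fit. In the reported fit this spread includes any difference between sexes.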

Additional observations from a re-analysis of the deposited data

Results flagged for a closer look

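In several genes 1 mouse stood apart from the other 3 of its genotype by Dixon's criterion, in which the gap of the most extreme mouse to its nearest neighbor is divided by the range of the 4 mice. Of 29 groups examined, 6 were past his 95% critical value for 4 mice, where chance gives about 1 in 20 for continuous values. For *Saa1*, *Saa3*, and *Saa4*, control mouse 4 was the only mouse of its group with a count, with 2, 6, and 7 counts, so the ratio was 1 whatever the count, and these 3 say only that the other mice were at 0. For *Hp*, control mouse 3 gave 0.939, and for *Ttr* the same mouse gave 0.943. For *Cfi*, c-MafΔTAM mouse 1 was below the other 3, with a ratio of 0.912.

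For 3 members the genotypes were ordered in opposite ways in mice with high and with low *Xist*, without overlap in either class. The difference of mean log2 CPM, c-MafΔTAM minus control, was 0.56 for *C3* among the 5 mice with high *Xist* and -1.01 among the 3 with low *Xist*. It was 0.40 and -0.78 for *Fga*. It was 1.25 and -1.95 for *Hp*, where c-MafΔTAM mouse 1 and control mouse 4, at 0.611 and 0.704 CPM, had 12 counts each and control mouse 3, with the fat cell transcripts, had 183. These differences between the classes were not tested, and the class with low *Xist* held 1 c-MafΔTAM mouse.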

How the results depend on the processing

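Over 17 alternatives the log2 fold change of *Mbl1* was 2.08 to 2.83 and that of *Saa4* 4.08 to 8.96, where the highest value has controls at 0. Both were chosen on this contrast, so their settings describe the size of the values and are no test. *Fgb* was higher in 17 of 17 and *Fgg* in 0 of 17, whereas *C3* was higher in 5 of 17, *Fga* in 1 of 17, and *Hp* in 2 of 16, so their directions changed between these settings. The count of members past the threshold, 2 in the reported fit, was 1 with the filter of at least 1 count, 1 with the replicate block, 1 without the 2 mice with the most fat cell transcripts, and 1 to 2 without 1 mouse, and the member that dropped out was *Saa4* each time, which passed in 9 of the 17. The 436 calls over all genes became 886 with DESeq2, 129 with the replicate block, 1374 with *Xist* as a covariate, 789 in the mice with high *Xist*, 219 without the 2 mice with fat cell transcripts, and 239 to 452 without 1 mouse (lowest without c-MafΔTAM mouse 3). The 6 called genes of the pathway lists became 14, 0, 18, 16, and 1 in the same settings, in that order, and 2 to 6 without 1 mouse. The cause was not tested. The replicate numbers did not pair the mice, with correlations of -0.37, 0.15, -0.11, and -0.33 between the deviations of same-numbered mice, so they share only a number. Of the 6 pathway list genes, directions held in all 17 alternatives, and *Krt8* was called in 16, *A2m* in 14, *Ttr* in 13, *Serping1* in 11, *F13b* in 10, and *Cfi* in 9. Depth limits *Saa1*, *Saa2*, *Saa3*, *Mbl2*, and *Il6*, which had few counts in any mouse.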

Other observations

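Mitochondrial genes took 17.1% to 32.3% of the counts, most in c-MafΔTAM mouse 1, the mouse with the most *Saa4*, the least *C3*, and the most *Havcr1* counts of the 8. The part of RNA quality or of injury in these values was not tested.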
